A study of Mus musculus with 34 samples.

Results

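Interleukin-1 (IL-1) and tumour necrosis factor (TNF) signalling was followed through 10 genes of mouse spinal cord after injury: the ligands Il1a, Il1b, Il18 and Tnf, the antagonist Il1rn, and the receptors Il1r1, Il1r2, Tnfrsf1a, Tnfrsf1b and Tnfrsf12a. They were chosen by symbol, as 10 of the 18193 genes with a probe set of their own on the array, and each was read from whichever of its probe sets averaged highest over 34 arrays. Of the 10, 8 were above background on at least 4 arrays and were tested among 11993 genes, while Il1a and Tnf stayed below that limit.

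RNA of spinal cord was measured on Affymetrix arrays in wild-type (WT) mice and in knockout (KO) mice, which the series title calls trkB.T1 null. TrkB.T1 is a form of the neurotrophin receptor trkB without the kinase domain. Control mice of each genotype had surgery that left the cord intact (sham), and the injured mice were sampled 1, 3 or 7 days after spinal cord injury. There were 4 sham, 5 day 1, 4 day 3 and 4 day 7 arrays of WT cord, and 4 sham, 4 day 1, 5 day 3 and 4 day 7 arrays of KO cord. The labels give neither strain, age nor sex, nor the way the null allele was made or the injury inflicted. Whether every array comes from its own animal is not stated, so p-values measure the spread between these samples, which may be technical, and the number of arrays limits the precision.

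IL-1 alpha, IL-1 beta and TNF are the cytokines that start much of the inflammatory response in injured nervous tissue, and microglia, infiltrating myeloid cells, astrocytes and endothelium can make or sense them. IL-1 beta and IL-18 are made as precursors that caspase-1 cleaves in the inflammasome. IL-1 signals through IL-1 receptor type 1 and its accessory protein to MyD88 and NF-kB, the receptor antagonist and the decoy receptor type 2 hold it back, and TNF acts through a death domain receptor and a second receptor without one.

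Values are deposited log2 values, and a value under log2 4 is not well above background. A value after ± is the SD of a level or the standard error (SE) of a log2 difference. Differences were tested with limma across all 11993 genes, with Benjamini-Hochberg adjusted p-values and a threshold of 0.05. Where an array of the lower group was under log2 4, the fold is a lower bound, computed with such values set to 4. Levels are compared within a gene only, since different probe sets have no common scale. In whole cord, a change in the number of cells of a type and a change in RNA per cell cannot be told apart.

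The promoters of 4 genes are shown because they stand for the 3 time courses described below (Il1b and Il1r2, highest at day 1 and down by day 7, Tnfrsf12a, highest at day 1 and still up at day 7, and Tnfrsf1b, highest at days 3 and 7), and that of Tnf because its transcript was not seen. Each run covers 250 bases before and 50 after a RefSeq transcription start of assembly GRCm38.p6, written 5′ to 3′ along the gene, with TATAAA and every CG in capitals. They lie at chr2:129371090-129371389 on the minus strand (Il1b), chr1:40085843-40086142 on the plus strand (Il1r2), chr17:23677400-23677699 on the minus strand (Tnfrsf12a), chr4:145246821-145247120 on the minus strand (Tnfrsf1b) and chr17:35201958-35202257 on the minus strand (Tnf).
Il1b: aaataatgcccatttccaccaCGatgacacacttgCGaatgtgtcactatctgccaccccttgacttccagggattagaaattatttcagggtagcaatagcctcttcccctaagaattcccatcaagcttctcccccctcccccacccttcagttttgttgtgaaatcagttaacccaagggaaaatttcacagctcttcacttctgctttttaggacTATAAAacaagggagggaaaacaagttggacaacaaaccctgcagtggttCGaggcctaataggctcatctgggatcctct
Il1r2: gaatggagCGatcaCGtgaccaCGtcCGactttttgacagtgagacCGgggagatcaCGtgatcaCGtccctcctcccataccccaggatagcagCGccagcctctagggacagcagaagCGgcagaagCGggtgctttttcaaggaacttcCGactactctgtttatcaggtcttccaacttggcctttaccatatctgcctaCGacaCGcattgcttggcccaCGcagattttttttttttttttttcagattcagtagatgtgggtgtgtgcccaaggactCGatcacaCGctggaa
Tnfrsf12a: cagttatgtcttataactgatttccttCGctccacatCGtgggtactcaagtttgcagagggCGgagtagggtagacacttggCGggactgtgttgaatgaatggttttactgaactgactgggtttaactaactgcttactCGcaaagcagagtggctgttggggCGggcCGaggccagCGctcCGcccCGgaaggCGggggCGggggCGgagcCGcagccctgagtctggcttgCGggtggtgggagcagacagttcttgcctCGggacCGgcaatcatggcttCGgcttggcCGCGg
Tnfrsf1b: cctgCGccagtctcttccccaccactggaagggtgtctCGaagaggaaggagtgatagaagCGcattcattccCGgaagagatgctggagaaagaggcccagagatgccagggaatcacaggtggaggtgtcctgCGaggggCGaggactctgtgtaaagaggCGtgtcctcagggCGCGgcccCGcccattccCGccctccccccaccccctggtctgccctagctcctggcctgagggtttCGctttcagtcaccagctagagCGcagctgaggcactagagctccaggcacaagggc
Tnf: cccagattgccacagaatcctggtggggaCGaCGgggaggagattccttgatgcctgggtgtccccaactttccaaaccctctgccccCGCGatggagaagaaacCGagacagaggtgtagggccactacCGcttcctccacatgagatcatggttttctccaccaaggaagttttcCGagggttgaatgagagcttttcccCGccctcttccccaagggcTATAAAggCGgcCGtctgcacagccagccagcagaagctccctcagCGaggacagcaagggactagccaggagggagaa

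TATAAA, searched on the gene's own strand, stood 31 bases before the start in Il1b, 29 before it in Tnf and 32 before it in Il1a, and was in none of the other members' windows. Of 32851 promoters of all genes, 8.32% held it. The receptor promoters printed here held more CG pairs, 16 in Il1r2, 13 in Tnfrsf1b and 20 in Tnfrsf12a, against 3 in Il1b, 11 in Tnf and a median of 7 over all promoters. Among the receptor promoters not printed, that of Tnfrsf1a held 11, as many as Tnf, and those of Il1r1 held 5 and 14. All 10 members matched the promoter table, with 13 promoters in all. GGNNTTTCC, the spelling used here for an NF-kB motif, was searched on both strands. It occurred in 2 of the 3 Il1rn promoters, and in no other member's window (5.82% of all promoters). Those 2 Il1rn windows overlap and share 1 site, which lies 30 bases after the start of the first and 50 before that of the second. TGANTCA, used for AP-1 and searched likewise, occurred in the remaining Il1rn promoter and in Il1a (7.81% of all promoters). A match is only a string of letters in these windows.

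Facts of the whole series bear on the results in a few places. In the best Ntrk2 probe set, injured KO arrays all read 2.83 and WT arrays 8.65 to 9.92, but the array labelled KO sham replicate 2 read 8.59, against its label. Leaving that array out ended 2 calls of the members between injured and sham cord, those of Il18 at day 1 in KO and at day 7 in WT cord. KO day 3 replicates 3 and 4 stood apart in their markers too, with neuron means of 11.045 and 11.20 against 11.90 to 12.22 on the other 3, and macrophage means of 10.40 and 10.49 against 9.22 to 10.01. They held the highest KO day 3 values of Il1rn, Il1r1, Il1r2, Tnfrsf1a, Tnfrsf1b and Tnfrsf12a and the lowest of Il18. Without both, 7 of the 8 KO day 3 calls against sham held, the one lost being Il1rn. The array labelled WT day 3 replicate 2 stood apart in its markers of homeostatic microglia, with a mean over 10 genes of 7.60 against 8.85 to 9.10 on the other 3. Astrocyte markers averaged 11.5 to 12.8 and oligodendrocyte markers 12.5 to 13.5 over the arrays, so the glia of the cord were seen on all of them. Skeletal muscle markers, which cord itself should lack, ranged from 3.27 to 13.8 among arrays.

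At day 1, 7 of the 10 genes rose in WT cord and 7 rose in KO cord, where 27.1% and 23.7% of all tested genes rose. Il18 fell in both genotypes, with 32.5% and 27.3% of all tested genes falling. At day 3, 6 genes rose in WT (29.5% of all genes) and 7 in KO cord (30.9%), and Il18 fell again (37.4% and 38.8% of all genes fell). At day 7, 4 genes, all of them receptors, were still higher in each genotype (25.8% and 23.5% of all genes), and Il18 was lower (33.3% and 31% of all genes). Il1b, Il1rn and Il1r2 passed the filter through the injured arrays where they were higher, with 17, 8 and 19 of 34 arrays above log2 4. Il1r1 and Tnfrsf1b had 29 and 27. Some difference was thus built into the choice of these 5. The counts and medians here are a description, and so are the p-values of these 5 against sham cord below. The median log2 difference of the 8 tested genes in WT cord was 2.72 at day 1, 2.42 at day 3 and 0.99 at day 7, against -0.05, -0.06 and -0.06 over all tested genes. In KO cord these medians were 2.72, 2.21 and 1.01, against -0.05, -0.06 and -0.06.

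**Figure D1:**
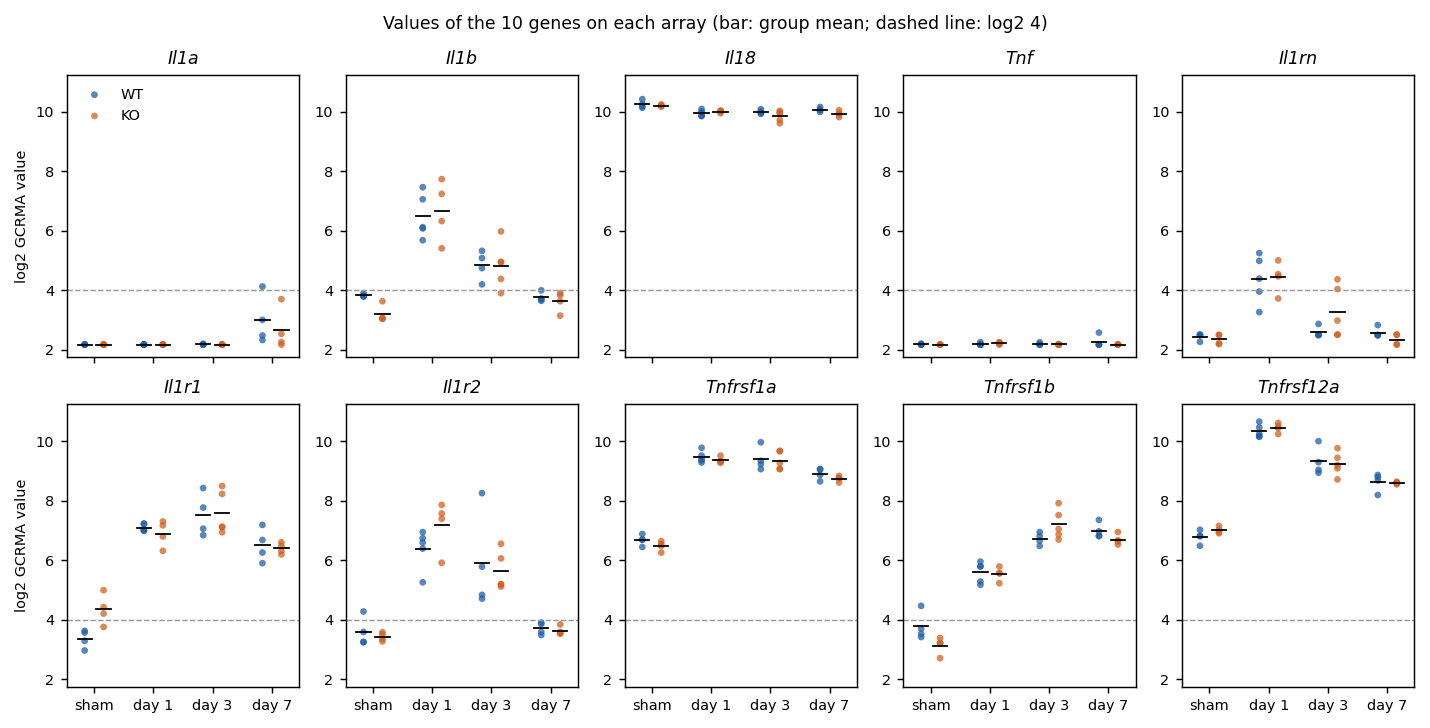
Log2 value of each of the 10 genes on every array (points, WT blue, KO orange) in sham cord and at days 1, 3 and 7, with the group mean as a bar and log2 4 as a dashed line. Il1b, Il1rn and Il1r2 have their highest means at day 1 and are near or under the line at day 7. Il1rn lies on both sides of the line at day 1. Tnfrsf1b is higher at days 3 and 7 than at day 1, and Il1a and Tnf stay under the line on all but 1 array.

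Il1b encodes IL-1 beta, the secreted ligand that the inflammasome releases. In WT cord its sham arrays read between 3.78 and 3.90, all under log2 4. The day 1 arrays read 5.68, 6.08, 6.12, 7.06 and 7.46, the day 3 arrays 4.20, 4.74, 5.08 and 5.32, and the day 7 arrays between 3.64 and 3.9958. Sham and day 7 overlapped, day 3 lay above both, and day 1 lay above day 3. The rise was at least 5.57-fold at day 1 (log2 difference 2.65 ± 0.38, adjusted p = 1.55e-06) and at least 1.78-fold at day 3 (1.01 ± 0.40, adjusted p = 0.0292). The day 3 call was lost without any one of WT day 3 replicates 3 and 4 and WT sham replicates 1, 2 and 3, with an adjusted p of up to 0.0911. It was lost as well with values under 4 set to 4 (0.84, adjusted p = 0.0572). At day 7 the difference was -0.07 ± 0.40 (adjusted p = 0.903).

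In KO cord the Il1b sham arrays read 3.04, 3.04, 3.07 and 3.63. The day 1 arrays read 5.41, 6.32, 7.24 and 7.73, and the day 3 arrays 3.90, 4.38, 4.94, 4.95 and 5.98. Day 7 arrays, between 3.14 and 3.90, overlapped sham and day 3. The rise was at least 6.39-fold at day 1 (3.48 ± 0.40, adjusted p = 5.4e-08) and at least 1.80-fold at day 3 (1.63 ± 0.38, adjusted p = 0.000437), and the day 7 difference was 0.43 ± 0.40 (adjusted p = 0.383). In the order of its 8 group means, KO day 1 and WT day 1 came first and overlapped, both day 3 groups followed and overlapped, and the remaining 4 groups each overlapped the next.

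Il1a, the alarmin form of IL-1 that acts without cleavage by caspase-1, was seen on 1 array only. All 26 arrays of sham, day 1 and day 3 cord read between 2.17 and 2.199. At day 7 the WT arrays read 2.33, 2.48, 3.00 and 4.12, and the KO arrays 2.17, 2.26, 2.54 and 3.70. WT day 7 arrays lay above every sham array, but 7 of the 8 day 7 arrays were under log2 4. With no filter on low values, the WT day 7 difference was 0.81 ± 0.26 (adjusted p = 0.0122) and the KO one 0.49 ± 0.26 (adjusted p = 0.144). Tnf, the founding ligand of its family, read between 2.17 and 2.57 on all 34 arrays. With no filter its differences from sham reached 0.09 ± 0.05 at most (WT day 7, adjusted p = 0.155). Transcripts of both may still be present below what these probe sets detect.

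Il18, the IL-1 family ligand that is stored as a precursor and drives interferon gamma production, was well above background throughout. WT sham arrays read between 10.13 and 10.42, and WT injured arrays between 9.86 and 10.16. The falls in WT cord were small, by 0.29 ± 0.07 at day 1 (adjusted p = 0.00126) and by 0.25 ± 0.08 at day 3 (adjusted p = 0.00554), and the injured arrays lay below the sham arrays. At day 7 the WT groups overlapped and the difference was -0.18 ± 0.08 (adjusted p = 0.0499), a call that was lost in 23 of 34 fits that left out 1 array, with an adjusted p of up to 0.213. KO sham arrays read between 10.17 and 10.24 and KO injured arrays between 9.61 and 10.05. In KO cord Il18 fell by 0.20 ± 0.08 at day 1 (adjusted p = 0.0323), by 0.35 ± 0.07 at day 3 (adjusted p = 0.000128) and by 0.27 ± 0.08 at day 7 (adjusted p = 0.00384). The KO day 1 call was lost without KO sham replicate 2 (fall by 0.20, adjusted p = 0.0583), and in 4 other fits that left out 1 array (KO sham replicates 1 and 3, KO day 1 replicates 2 and 4), with an adjusted p of up to 0.0787. Measured as a ratio, the largest of these falls was 1.27-fold. Of 9 tested neuron markers, 6, 9 and 9 fell in WT at days 1, 3 and 7, and 3, 9 and 7 in KO cord. Of all tested genes, 32.5%, 37.4% and 33.3% fell in WT at these times, and 27.3%, 38.8% and 31% in KO cord. Of 8 oligodendrocyte markers 4, 7 and 5 fell at days 1, 3 and 7 in each genotype. In WT cord 1 rose at days 1 and 3, and in KO cord 1 rose at day 1. The oligodendrocyte mean in KO cord went from 13.27 in sham to 13.04, 12.79 and 12.90. Monocyte and macrophage markers went the other way, with none lower at any time. The part of any of these in the Il18 result was not tested.

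Il1rn encodes the secreted antagonist that occupies IL-1 receptor type 1 without signalling. WT day 1 arrays read 3.26, 3.95, 4.39, 4.99 and 5.25, and the other 12 WT arrays stayed at or under 2.86. KO day 1 arrays read 3.72, 4.46, 4.54 and 5.0012, and KO day 3 arrays 2.51, 2.51, 2.98, 4.04 and 4.36. Day 1 lay above sham without overlap in both genotypes. The rise was 1.93 ± 0.33 in WT (adjusted p = 1.88e-05) and 2.08 ± 0.35 in KO cord (adjusted p = 1.79e-05), at least 1.44-fold and 1.42-fold. Only 3 WT day 1, 3 KO day 1 and 2 KO day 3 arrays were above log2 4. Il1rn thus entered the tests through the groups that are compared with sham here, and these p-values are a description. In KO cord the day 3 rise (0.93 ± 0.33, adjusted p = 0.014) rested on 2 arrays. It was lost without either of them, KO day 3 replicates 3 and 4, with an adjusted p of up to 0.0664, and with values under 4 set to 4 it was 0.08 (adjusted p = 0.701). Array weights ended this call too (0.48, adjusted p = 0.142), as did a fit of these groups alone (adjusted p = 0.0657). Without both arrays, which stood apart in their cell markers, it was 0.32 (adjusted p = 0.371). The 2 other Il1rn probe sets were under log2 4 on all arrays, so the antagonist is known here from a single probe set. In WT cord the day 3 difference was 0.15 ± 0.35 (adjusted p = 0.717), and at day 7 the differences were 0.13 ± 0.35 (WT, adjusted p = 0.764) and -0.00 ± 0.35 (KO, adjusted p = 0.992).

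Il1r2 encodes the decoy receptor, which binds IL-1 but lacks the signalling domain, and is known from neutrophils and macrophages. WT sham arrays read between 3.25 and 4.28. WT day 1 arrays read 5.26, 6.40, 6.60, 6.75 and 6.95, and WT day 3 arrays 4.71, 4.84, 5.79 and 8.26. WT day 7 arrays, between 3.49 and 3.90, were back within the sham range. The WT rise was at least 4.99-fold at day 1 (2.80 ± 0.48, adjusted p = 2.16e-05) and at least 3.55-fold at day 3 (2.30 ± 0.51, adjusted p = 0.000273). The value of 8.26 is that of WT day 3 replicate 2, the array that stood apart, and without it the day 3 difference was 1.52 (adjusted p = 0.00161).

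KO day 1 arrays of Il1r2 read 5.92, 7.39, 7.57 and 7.86, and KO day 3 arrays 5.12, 5.19, 5.196, 6.07 and 6.56. All 9 lay above the KO sham arrays, which read between 3.28 and 3.58, and above the KO day 7 arrays, which read between 3.53 and 3.85. The KO rise was at least 9.11-fold at day 1 (3.75 ± 0.51, adjusted p = 8.01e-07) and at least 3.09-fold at day 3 (2.19 ± 0.48, adjusted p = 0.000224). At day 7 the differences were 0.12 ± 0.51 in WT (adjusted p = 0.862) and 0.20 ± 0.51 in KO cord (adjusted p = 0.765).

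Il1r1 encodes the signalling receptor, which endothelium carries at a high level in the nervous system. WT sham arrays read 2.97, 3.29, 3.57 and 3.63, all under log2 4, and day 1 arrays 6.9982, 6.9998, 7.04, 7.22 and 7.24. WT day 3 arrays read 6.85, 7.06, 7.77 and 8.43, and day 7 arrays 5.90, 6.26, 6.68 and 7.19. All 13 injured WT arrays were well above background. KO sham arrays read 3.76, 4.21, 4.43 and 4.9964, and all 13 KO injured arrays read between 6.20 and 8.50. The injured arrays of each genotype lay above its sham arrays at every time. In WT cord the rise was at least 8.57-fold at day 1 (3.73 ± 0.32), 11.5-fold at day 3 (4.16 ± 0.34) and 5.70-fold at day 7 (3.15 ± 0.34), with adjusted p-values of 1.09e-10, 2.14e-11 and 7.18e-09. In KO cord it was at least 5.63-fold (2.55 ± 0.34), 9.04-fold (3.24 ± 0.32) and 3.98-fold (2.05 ± 0.34), with adjusted p-values of 4.77e-07, 9.04e-10 and 1.15e-05. A second Il1r1 probe set was under log2 4 on all arrays. Of 9 tested endothelial markers 8, 8 and 2 rose in WT cord at days 1, 3 and 7, and 4, 7 and 2 rose in KO cord, where 1 fell at day 7. Their mean in KO cord at day 7, 6.35 to 6.85, overlapped that of KO sham, 6.33 to 6.91. The part of endothelial cells in the Il1r1 result was not tested at any time.

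Tnfrsf1a encodes TNF receptor 1, which carries the death domain and is found on most cells. WT sham arrays read between 6.45 and 6.89, WT day 1 arrays between 9.29 and 9.78, day 3 arrays between 9.07 and 9.97 and day 7 arrays between 8.65 and 9.07. KO sham arrays read between 6.26 and 6.65 and KO injured arrays between 8.62 and 9.68. All 26 injured arrays lay above all 8 sham arrays. The rise in WT cord was 6.90-fold at day 1 (2.79 ± 0.15), 6.60-fold at day 3 (2.72 ± 0.16) and 4.69-fold at day 7 (2.23 ± 0.16). In KO cord it was 7.37-fold (2.88 ± 0.16), 7.31-fold (2.87 ± 0.15) and 4.79-fold (2.26 ± 0.16). Adjusted p-values were at most 1.09e-12 over these 6 comparisons.

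Tnfrsf1b encodes TNF receptor 2, which lacks a death domain and is carried by microglia, macrophages and lymphocytes among others. WT sham arrays read 3.42, 3.53, 3.70 and 4.47, and day 1 arrays 5.18, 5.29, 5.80, 5.80 and 5.96. WT day 3 arrays read 6.49, 6.66, 6.81 and 6.95 and day 7 arrays 6.82, 6.82, 6.97 and 7.36. KO sham arrays read 2.71, 3.21, 3.22 and 3.39, day 1 arrays 5.23, 5.56, 5.57 and 5.79. KO day 3 arrays read 6.70, 6.87, 7.05, 7.52 and 7.92, and day 7 arrays 6.53, 6.64, 6.68 and 6.95. In both genotypes days 3 and 7 lay above day 1, and day 1 above sham, without overlap. The WT rise was at least 2.80-fold at day 1 (1.82 ± 0.22, adjusted p = 7.61e-08), 6.10-fold at day 3 (2.94 ± 0.23, adjusted p = 1.15e-11) and 7.34-fold at day 7 (3.21 ± 0.23, adjusted p = 1.93e-12). The KO rise was at least 2.91-fold (2.40 ± 0.23, adjusted p = 1.65e-09), 9.28-fold (4.08 ± 0.22, adjusted p = 1.73e-15) and 6.49-fold (3.56 ± 0.23, adjusted p = 2.23e-13). A second Tnfrsf1b probe set was under log2 4 on all arrays.

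Tnfrsf12a encodes Fn14, the receptor of the TNF family ligand TWEAK, which many injured tissues induce. WT sham arrays read 6.49, 6.81, 6.83 and 7.03, and WT day 1 arrays 10.15, 10.18, 10.25, 10.47 and 10.66. WT day 3 arrays read between 8.95 and 10.01 and day 7 arrays between 8.20 and 8.87. KO sham arrays read between 6.91 and 7.16, KO day 1 arrays between 10.25 and 10.62, day 3 arrays between 8.72 and 9.77 and day 7 arrays between 8.55 and 8.64. The 4 times did not overlap in either genotype. The rise was 11.7-fold in WT (3.55 ± 0.18) and 10.9-fold in KO cord (3.44 ± 0.19) at day 1, 5.80-fold and 4.71-fold at day 3, and 3.60-fold and 3.01-fold at day 7, with adjusted p-values of at most 8.17e-08. A second probe set of Tnfrsf12a gave differences of 3.77 (WT) and 3.64 (KO) at day 1 and 2.05 (WT) and 1.61 (KO) at day 7.

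**Figure D2:**
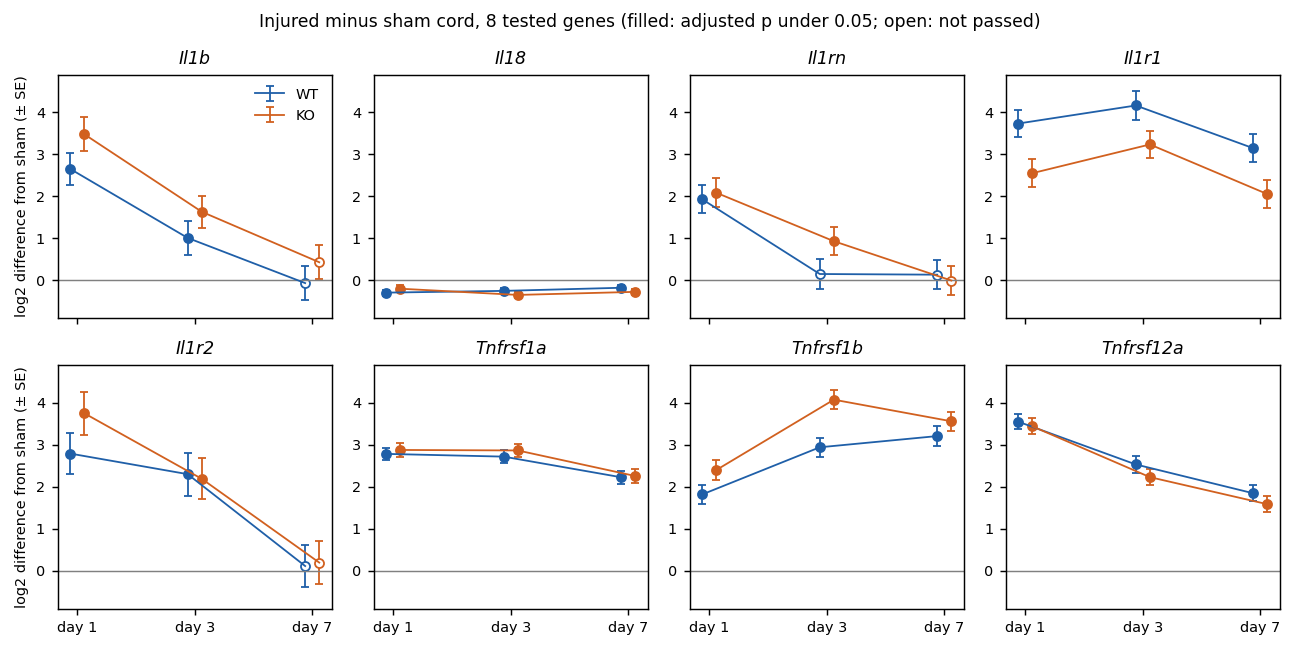
Log2 difference of injured from sham cord (± SE) at days 1, 3 and 7 for the 8 tested genes, WT in blue and KO in orange, with filled points where the adjusted p was under 0.05. Il1b, Il1rn and Il1r2 return towards 0 by day 7, while the other receptors stay up, with Tnfrsf1b at 3.21 (WT) and 3.56 (KO) at day 7.

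Between days 1 and 3, Il1b fell by 1.64 ± 0.38 in WT (adjusted p = 0.00161) and by 1.85 ± 0.38 in KO cord (adjusted p = 0.000221). Il1rn fell by 1.78 ± 0.33 and by 1.15 ± 0.33, and Tnfrsf12a by 1.02 ± 0.18 and by 1.21 ± 0.18. The KO call of Il1rn was lost in limma with only those groups fitted (adjusted p = 0.0651). At day 3, 0 of 4 WT and 2 of 5 KO arrays of Il1rn were above log2 4, so the sizes of its falls are uncertain. Tnfrsf1b rose over the same interval, by 1.12 ± 0.22 in WT (adjusted p = 0.00026) and by 1.67 ± 0.22 in KO cord (adjusted p = 4.43e-07). In WT cord this made 3 genes lower and 1 higher, where 17.3% and 15.4% of all tested genes were. In KO cord it was 4 lower and 1 higher, where 31% and 23.5% were, the fourth being Il1r2 (fall by 1.56 ± 0.48, adjusted p = 0.00809). The WT difference of Il1r2 was -0.49 ± 0.48 (adjusted p = 0.456), and without WT day 3 replicate 2 it was -1.28 (adjusted p = 0.0106).

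Between days 3 and 7, no member rose in either genotype, where 11% (WT) and 19.3% (KO) of all tested genes did. In WT cord 4 fell (12% of all genes), namely Il1r1 by 1.02 ± 0.34 (adjusted p = 0.0281), Il1r2 by 2.19 ± 0.51 (adjusted p = 0.00237), Tnfrsf1a by 0.49 ± 0.16 (adjusted p = 0.0226) and Tnfrsf12a by 0.69 ± 0.19 (adjusted p = 0.00999). Without WT day 3 replicate 2, the Il1r1, Tnfrsf1a and Tnfrsf12a calls were lost, at differences of -0.72, -0.30 and -0.46 and adjusted p-values of 0.16, 0.16 and 0.0779. Without that array Il1r2 stood at -1.40 (adjusted p = 0.0145) and Il1b gained a call at -1.29 (adjusted p = 0.04). With only those groups fitted, all 4 calls were lost, at adjusted p-values of 0.155 (Il1r1), 0.105 (Il1r2), 0.165 (Tnfrsf1a) and 0.135 (Tnfrsf12a), and Il1b passed (adjusted p = 0.0279). The Il1r1 call was lost as well without WT day 3 replicate 3 or WT day 7 replicate 2 or 3, the Tnfrsf1a call without WT day 7 replicate 2 or 3, and the Tnfrsf12a call without WT day 7 replicate 4. In KO cord 6 fell (16.6% of all genes). Il1r2 fell by 1.99 ± 0.48 (adjusted p = 0.00266), Il1b by 1.20 ± 0.38 (adjusted p = 0.0168), Il1r1 by 1.18 ± 0.32 (adjusted p = 0.00584), and Tnfrsf1a and Tnfrsf12a by 0.61 ± 0.15 and by 0.64 ± 0.18. The sixth was Il1rn, by 0.94 ± 0.33 (adjusted p = 0.0287), and its call was lost without KO day 3 replicate 3 or 4 or KO day 7 replicate 1 or 4, and that of Il1b without KO day 3 replicate 1 or KO day 7 replicate 1. With values under 4 set to 4 the Il1rn difference was -0.08 (adjusted p = 0.754), and array weights (-0.48, adjusted p = 0.192), quantile normalisation (-0.76, adjusted p = 0.0756) and a fit of those groups alone (adjusted p = 0.125) ended its call as well. Without KO day 3 replicates 3 and 4, which stood apart in their markers, 0 of the 8 genes passed in limma. At the same adjusted threshold 7.35% of all genes were lower. Of the 8 genes, 5 had an unadjusted p under 0.05, a count to which that share does not apply. The differences were then -1.54 for Il1r2 (adjusted p = 0.0563), -1.12 for Il1b, -0.66 for Il1r1, -0.39 for Tnfrsf1a, -0.40 for Tnfrsf12a and -0.32 for Il1rn. None of the 6 KO calls between days 3 and 7 held in that fit, which has 2 arrays fewer. The WT difference of Tnfrsf1b from day 3 to day 7 was 0.27 ± 0.23 (adjusted p = 0.435) and the KO difference -0.51 ± 0.22 (adjusted p = 0.0666).

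None of the 8 tested genes differed between KO and WT cord in limma at any time, where 0.0667% of all tested genes passed in sham cord, 0.859% at day 1, 0.0334% at day 3 and 0.0334% at day 7. The lowest adjusted p among them was 0.86 in sham cord, 0.635 at day 1, 0.401 at day 3 and 1 at day 7. At an unadjusted p under 0.05 there were 2 genes in sham cord, 0 at day 1, 2 at day 3 and 0 at day 7. The shares of all genes just given are at the adjusted threshold and do not apply to these counts. The share of all genes under the unadjusted threshold was not computed, so nothing is read from the counts. A p that misses the threshold does not show that the genotypes act alike, and the 95% intervals of the differences give their possible size.

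The sham difference was largest for Il1r1, at 0.98 ± 0.34 higher in KO cord (95% interval 0.29 to 1.67, adjusted p = 0.86). The 4 KO sham arrays lay above the 4 WT sham arrays, which were all under log2 4, and without KO sham replicate 2 the difference was 1.18 (adjusted p = 0.467). With array weights in the fit it passed, at 1.04 (adjusted p = 0.0331), and with values under 4 set to 4 it was 0.41. The mean of 9 endothelial markers was also higher in KO sham (6.33 to 6.91) than in WT sham cord (5.82 to 6.16) on every array, although 0 of the 9 passed the test (limma). Skeletal muscle markers averaged 7.96 to 10.79 in KO sham and 3.27 to 9.15 in WT sham cord. The part of either in the Il1r1 difference was not tested.

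Tnfrsf1b was lower in KO sham cord by 0.65 ± 0.23 (interval -1.12 to -0.17, adjusted p = 0.974), with no overlap but with 7 of 8 arrays under log2 4. With array weights this difference passed too, at -0.81 (adjusted p = 0.0472), and with values under 4 set to 4 it was -0.12. The Il1b sham arrays of the genotypes did not overlap either, but all 8 were under log2 4 and the interval ran from -1.46 to 0.20. At day 3 Tnfrsf1b stood at 0.49 ± 0.22 higher in KO cord (interval 0.04 to 0.94, adjusted p = 0.401) and Il1rn at 0.69 ± 0.33 higher (interval 0.01 to 1.37, adjusted p = 0.426), with overlapping arrays. Without KO day 3 replicates 3 and 4 these were 0.15 and 0.07. At day 1 the widest interval was that of Il1r2, from -0.19 to 1.79 around 0.80, and the narrowest that of Il18, from -0.10 to 0.20. For Tnfrsf1a and Tnfrsf12a the intervals stayed within 0.62 of 0 at all 4 times.

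**Figure D3:**
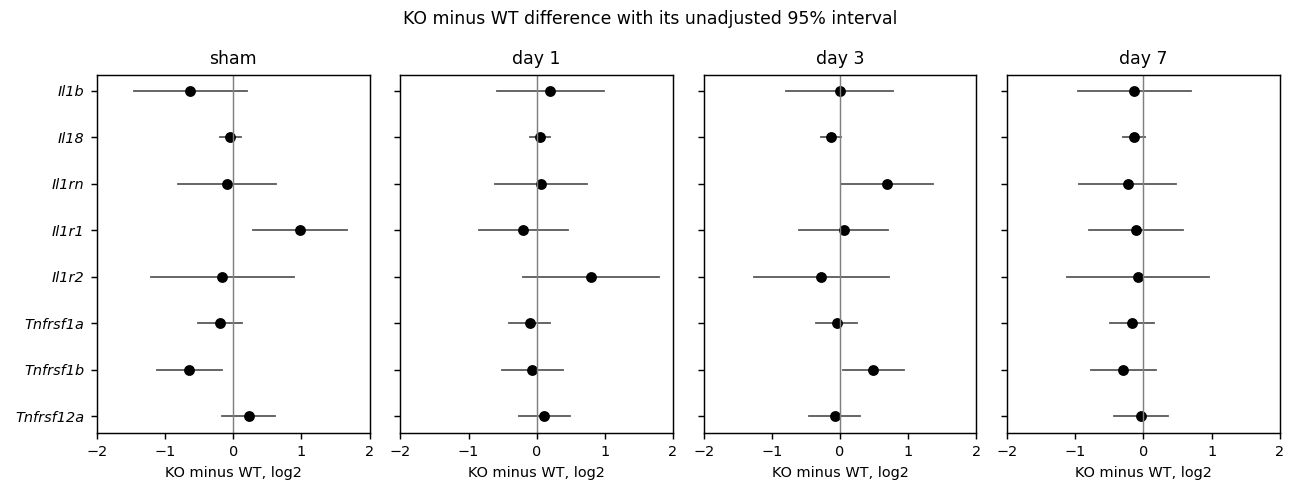
KO minus WT log2 difference of the 8 tested genes in sham cord and at days 1, 3 and 7 (points) with unadjusted 95% intervals (lines). The Il1r1 and Tnfrsf1b intervals in sham cord, 0.29 to 1.67 and -1.12 to -0.17, leave out 0, but no adjusted p was under 0.05.

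The genotype difference in the injury response, tested as an interaction, was past the threshold for none of the 8 genes in limma, where 0.142%, 0% and 0.00834% of all tested genes passed at days 1, 3 and 7. At an unadjusted p under 0.05 there was 1 gene at each time, a count to which those adjusted shares do not apply. For Il1r1 the KO rise was 1.18 ± 0.46 smaller on the log2 scale at day 1 (interval -2.13 to -0.23, adjusted p = 0.613). For Tnfrsf1b it was 1.13 ± 0.32 larger at day 3 (interval 0.48 to 1.79, adjusted p = 0.496). With values under 4 set to 4 these were -0.61 (adjusted p = 0.928) and 0.61 (adjusted p = 0.69), as 5 and 7 of their 8 sham arrays were under log2 4. Without KO day 3 replicates 3 and 4, the day 3 interaction of Tnfrsf1b was 0.80, and that of Il1r1 went from -0.93 to -1.45. In that fit none passed, and 2, 3 and 1 genes had an unadjusted p under 0.05 at days 1, 3 and 7. With all arrays, the gene at day 7 was also Il1r1, at -1.09, or -0.52 with values under 4 set to 4. The Il1r1 and Tnfrsf1b interactions share their sham arrays with the sham differences above. The genotype difference in the change from day 1 to day 3 passed for none of the 8, with a lowest adjusted p of 0.393, where 0.859% of all genes passed. That from day 3 to day 7 passed for none either, with a lowest adjusted p of 0.577, where 0.00834% of all genes passed. Unadjusted, 0 and 1 of the 8 were under 0.05 in these comparisons, the 1 being Tnfrsf1b, again without the share of all genes at that threshold.

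Genes around the members were taken from lists of their pathway, and each count below is to be read against the 27.1%, 29.5% and 25.8% of all tested genes that rose in WT cord at days 1, 3 and 7 and the 23.7%, 30.9% and 23.5% that rose in KO cord. Of the IL-1 family partners, 4 of 10 were tested. Il1rap, the accessory chain that IL-1 receptor type 1 needs to signal, rose by 1.28 ± 0.10 in WT and 1.01 ± 0.11 in KO cord at day 1 and was 0.09 ± 0.11 and 0.00 ± 0.11 from sham at day 7. Il33, the nuclear alarmin of the family, rose at all 3 times, by 1.60 ± 0.11 in WT and by 1.60 ± 0.12 in KO cord at day 1. Il18bp, the soluble protein that neutralises IL-18, rose by 2.14 ± 0.27 (WT) and 2.25 ± 0.27 (KO) at day 7. Il1rl2, the receptor of the IL-36 cytokines, had mostly low values, and its rise of 1.33 ± 0.28 in WT cord at day 7 was at least 1.10-fold.

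Of the inflammasome and processing list, 6 of 9 tested genes rose in WT at day 1, 9 at day 3 and 9 at day 7, and 7, 8 and 9 rose in KO cord, with none lower. Casp1, which cleaves the IL-1 beta and IL-18 precursors, rose 6.08-fold in WT at day 1 and 6.68-fold at day 7 (2.74 ± 0.15). Pycard, the adaptor that joins sensors to caspase-1, rose 9.45-fold at day 1 and 16.4-fold at day 7 in WT cord. Ctsb, a lysosomal protease, rose by 0.93 ± 0.10 at day 1 and by 2.27 ± 0.10 at day 7 in WT. Naip2, a sensor of bacterial proteins, rose at least 10.2-fold in WT at day 7. The sensor Nlrp3 was below the filter on low values. The list's median difference in WT was 0.93, 1.74 and 2.08 at days 1, 3 and 7, against -0.05, -0.06 and -0.06 over all tested genes.

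Of 9 tested TNF superfamily partners, 5, 5 and 6 rose in WT at days 1, 3 and 7 and 4, 6 and 6 in KO cord, while 1, 1 and 0 fell in WT and 1, 2 and 0 in KO cord. Adam17, the protease that sheds TNF and its receptors, rose by 0.53 ± 0.13 at day 1 and by 1.57 ± 0.14 at day 7 in WT. Ltbr, the lymphotoxin beta receptor, rose 4.36-fold at day 1 (2.12 ± 0.17), and Fas, a death receptor, 3.28-fold at day 3 in WT cord. Tnfrsf11a, the receptor of RANK ligand, rose by 1.90 ± 0.21 in WT cord at day 3, at least 1.23-fold.

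Of 11 tested IL-1 receptor signalling genes, 3, 6 and 6 rose in WT at days 1, 3 and 7 and 3, 5 and 6 in KO cord, and 1, 2 and 1 fell in WT and 2, 3 and 1 in KO cord. The share that rose at day 1, 27.3% in each genotype, was near that of all tested genes. Their median difference in WT was 0.03, 0.33 and 0.48. Myd88, the adaptor of the IL-1 receptor, rose by 1.62 ± 0.15 in WT and 1.80 ± 0.15 in KO cord at day 1, and the kinase Irak1 by 0.45 ± 0.07 in WT. Tab2 and Peli1, which act with TRAF6 and the IRAK kinases, rose by 0.71 ± 0.07 and 0.53 ± 0.07 in WT cord at day 7. Of 17 TNF receptor signalling genes, 7, 6 and 8 rose in WT and 4, 10 and 7 in KO cord, and 3, 3 and 2 fell in WT and 1, 2 and 1 in KO cord. The 4 that rose in KO cord at day 1 are 23.5% of the list, near the share of all genes. Casp8, the initiator caspase of death receptors, rose at least 6.89-fold at day 1 in WT, its inhibitor Cflar 2.55-fold and the ubiquitin ligase Birc3 4.21-fold. Tnfaip3, which encodes the NF-kB inhibitor A20, rose by 0.80 ± 0.22 at day 1 and by 2.13 ± 0.23 at day 7 in WT cord.

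Of 11 NF-kB subunits and inhibitors, 8 rose in WT at each of the 3 times and 7, 8 and 7 in KO cord, with none lower. Bcl3, an atypical member of the IkB family, rose at least 10.1-fold in WT at day 1, and Nfkbiz, another, 5.67-fold. Nfkbia and Rela rose 2.21-fold and 1.97-fold. Of 22 genes that IL-1 and TNF are known to induce, 19, 17 and 14 rose in WT at days 1, 3 and 7 and 19, 17 and 14 in KO cord, and 0, 0 and 1 fell in WT and 1, 1 and 1 in KO cord. Their median difference in WT was 2.83, 1.92 and 1.31 at these times. Ccl2, the monocyte chemoattractant, rose at least 55.6-fold in WT at day 1 and at least 2.94-fold at day 7. Icam1, the leukocyte adhesion molecule, rose at least 5.14-fold at day 1 and at least 7.02-fold at day 7. Ptx3, a secreted pattern recognition protein, rose at least 70.5-fold and Cebpd, a transcription factor of the acute phase response, 42.6-fold at day 1.

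**Figure D4:**
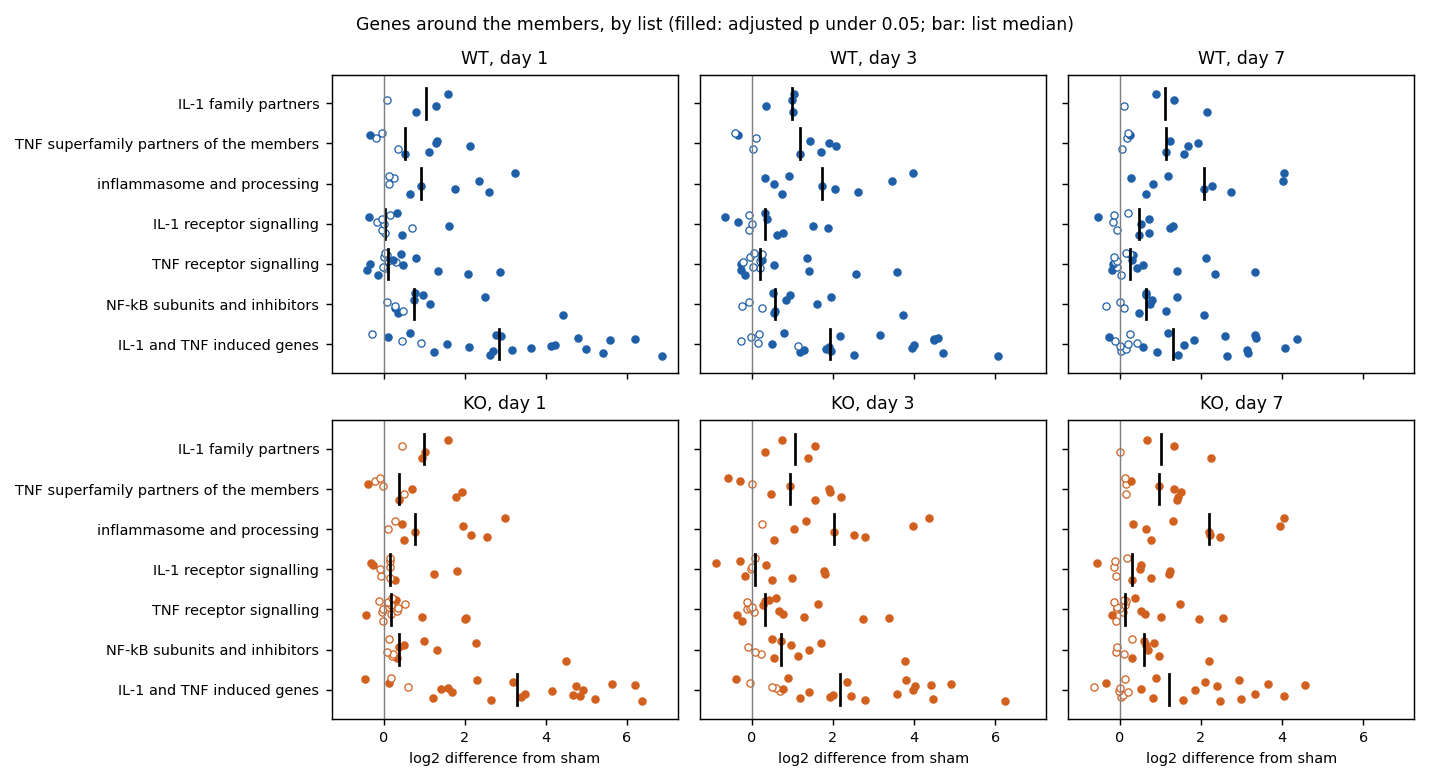
Log2 difference of injured from sham cord for each tested gene of 7 lists around the members (points, filled where the adjusted p was under 0.05, spread vertically within a list), with the list median as a bar, by genotype and day. The induced genes have the largest medians at day 1, 2.83 in WT and 3.29 in KO cord, and IL-1 receptor signalling genes lie nearer to 0, with medians of 0.03 and 0.16.

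Cell type markers differed between sham and injured cord in some lists and overlapped in others. The mean of 15 monocyte and macrophage markers was 4.18 to 4.54 in WT sham and 8.0003 to 8.76 in WT day 1 cord, and 3.76 to 4.48 and 7.73 to 8.63 in KO cord. At days 3 and 7 it was 9.03 to 9.55 and 8.74 to 9.47 in WT, and 9.22 to 10.49 and 9.07 to 9.12 in KO cord. All 15 rose in WT cord at days 1 and 3. The mean of 10 homeostatic microglia markers was 7.12 to 7.54 in WT sham, 7.04 to 7.38 at day 1 and 9.50 to 9.54 at day 7, and 7.13 to 7.37, 6.55 to 6.99 and 9.51 to 9.55 in KO cord.

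Of 9 tested neutrophil markers 2, 2 and 2 rose in WT at days 1, 3 and 7 and 2, 3 and 2 in KO cord. Their mean overlapped between sham and every injured group, with 6.05 to 7.86 in WT sham and 5.78 to 8.61 in WT day 1 cord. Elane and Cxcr2 were below the filter, and S100a8 differed from sham by 0.51 ± 0.60 in WT at day 1 (adjusted p = 0.477). These 3 were named after their values were seen. They do not stand for the list, of which 2 other markers rose in WT cord at day 1. All 8 T and NK cell markers on the array were below the filter, and so were 3 of 4 B cell markers. The part of any of these cell types in the members' changes was not tested.

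**Figure D5:**
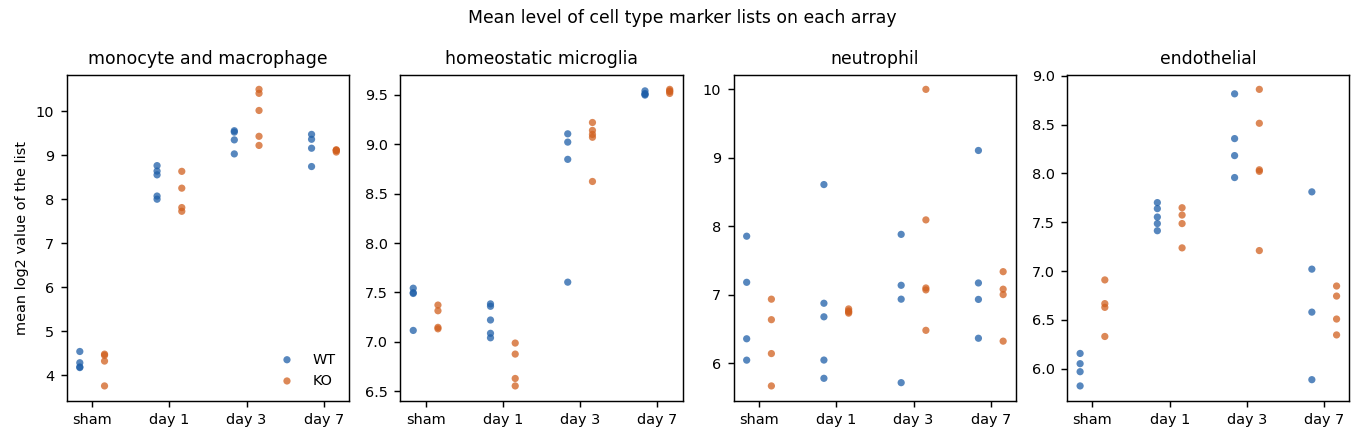
Mean log2 value of 4 marker lists on each array (points, WT blue, KO orange) in sham cord and at days 1, 3 and 7, each panel on its own scale. Macrophage markers are higher on all injured than on all sham arrays, microglia markers are highest at day 7, and 1 WT day 3 array lies apart at 7.60.

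The tested genes most like each member in the pattern of 8 group means are given by their Pearson r, as a description over points that share a fit and arrays. Il1b was most like Snx1 (r = 0.994) and Il1rn most like Atg3 (0.993). Il1r2 was most like Cxcl1 (0.997), a neutrophil chemoattractant that is itself one of the induced genes above, followed by Bola2 (0.993). Il1r1 was most like Ecscr (0.998), an endothelial surface protein, ahead of Nubp1 and Ahnak (both 0.995). Tnfrsf1a was most like Adam12 (0.999), Nek6 (0.998) and the adhesion receptor Cd44 (0.998). Tnfrsf1b was most like Slc11a1 (0.997), a transporter of phagocyte vesicles, Pak2 (0.996) and Gpx3 (0.996), Tnfrsf12a most like Smad3 (0.997), and Il18 most like Ccndbp1 (0.987) and Mbp (0.975), which encodes myelin basic protein.

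Among the members themselves, Il1b followed Il1rn (r = 0.959) and Il1r2 (0.954) over the 8 group means, and Il1r1 followed Tnfrsf1a (0.965). Tnfrsf1b had r = 0.22 with Il1b and 0.124 with Il1rn, and Il18 ran opposite to Il1r1 (r = -0.91). With 8 points each, these values describe the groups and are not tests.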

How the data were processed

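The authors deposited log2 values for each probe set, summarised with GCRMA (version not stated), per the submitters' processing notes. RNA was extracted with Trizol, per the labels' protocols. GCRMA corrects background and quantile-normalises, so low values collect near a floor and folds of dim genes are compressed; a genome build is not given in the sources used here. The deposited log2 values ran from 2.17 to 15.9 and were used without further normalisation. Of 45101 probe sets, 34945 had 1 gene symbol in the platform annotation, 932 several and 9160 none, and 64 were controls. Each of 18193 genes was read from its probe set with the highest mean, and the tests took the 11993 that exceeded log2 4 on 4 or more arrays.

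Linear models with 1 mean for each of 8 groups were fitted with lmFit and eBayes of limma 3.58.1, run in R 4.3.3, in 19 comparisons, with Benjamini-Hochberg adjustment over all tested genes of a comparison. The script was tested on simulated data. The members and gene lists were chosen with earlier results of these data known. Named genes are the 10 members, from each of 19 lists up to 4 tested genes with the smallest p of the moderated F-test over the 6 injury comparisons, for each tested member the 3 genes with the highest correlation of group means, and Ntrk2. S100a8, Nlrp3, Elane and Cxcr2 were named after their values were seen. Tried as alternatives were other filters, probe set rules, scalings, variance models and sets of arrays, and the replicate number as a block. Replicate numbers did not pair the samples: deviations of same-numbered arrays correlated at a mean r of 0.000775 (113 pairs).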

Additional observations from a re-analysis of the deposited data

Results flagged for a closer look

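Of 80 sets of one gene in one group, 10 had an array far from the others. The usual chance rate of about 1 in 20 groups does not apply, since many low values are tied near the floor. Sets with the same value on every array could not be flagged. All 10 values were under log2 4, where these probe sets carry little signal. Il1b read 3.63 on KO sham replicate 4, against 3.04 to 3.07 on the other 3 arrays. Il1rn read 2.26 on WT sham replicate 2, 2.86 on WT day 3 replicate 3 and 2.83 on WT day 7 replicate 4, against others between 2.48 and 2.51. Il1a read 2.199 on WT day 3 replicate 3, against 2.17 on the others. Tnf read 2.204 on WT sham replicate 4, 2.25 on WT day 1 replicate 5, 2.25 on WT day 3 replicate 3, 2.57 on WT day 7 replicate 2 and 2.19 on KO day 3 replicate 4, against 2.17 on the others.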

How the results depend on the processing

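The tests were repeated over 11 other settings and 2 added after seeing the data. Those 2 left out KO sham replicate 2 with WT day 3 replicate 2, and KO day 3 replicate 3 with replicate 4. Of 1957 values, 1889 kept their side of the threshold and, if they turned their direction, moved by at most 1 SE. None that had passed turned its direction. The injury counts of members called stayed within 1.5 times. With array weights, 2 members (Il1r1 and Tnfrsf1b) passed for KO against WT in sham cord in place of 0. For WT day 7 against day 3, 1 member passed in place of 4 when only those groups were fitted, on fewer arrays, and that was Il1b and none of the 4, while 2 passed without KO sham replicate 2 and WT day 3 replicate 2. For KO day 7 against day 3, 0 passed in limma in place of 6 without KO day 3 replicates 3 and 4 (5 at an unadjusted p under 0.05). For WT day 7 against day 3, leaving out 1 array at a time gave 2 to 5 members. The count was 2 without WT day 3 replicate 2, WT day 7 replicate 2 or WT day 7 replicate 3. For KO day 7 against day 3, leaving out 1 array at a time gave 4 to 7. Against sham it gave 8 to 8, 6 to 7 and 4 to 5 in WT cord at days 1, 3 and 7. In KO cord these ranges were 7 to 8, 7 to 8 and 5 to 5. The cause of these changes was not tested otherwise. With quantile normalisation the WT day 3 rise of Il1b was 0.63 (adjusted p = 0.154) and the KO day 3 rise of Il1rn 0.35 (adjusted p = 0.36), and the KO day 1 fall of Il18 missed the threshold (adjusted p = 0.061). The Il18 call in WT cord at day 7 was lost under 7 of the 13 settings, with an adjusted p of 0.0505 to 0.082. The KO fall of Il1b from day 3 to day 7 was lost with values under 4 set to 4 (adjusted p = 0.0684) and with those groups fitted alone (adjusted p = 0.0562). With the replicate number as a block, the replicate block changed 2 calls, Il18 in KO day 3 against day 1 (-0.18, adjusted p = 0.0385) and Tnfrsf1b in KO day 7 against day 3 (-0.60, adjusted p = 0.0332), which both passed. Signal over background limits Il1a, Tnf, Il1rn and the sham levels of Il1b, Il1r1, Il1r2 and Tnfrsf1b.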
